A study of Drosophila melanogaster with 3 samples.

Results

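The genes described here are 10 that stand beside some of the strongest binding peaks of NK7.1, a homeobox transcription factor of Drosophila melanogaster. These are cbt, Ugalt, px, CG14100, CG11050, PNPase, Lk6, Art3, CG1888 and CG32772. They were selected on the measured signal of those peaks, so the height of their strongest peak is a description and not a finding. They are 10 of the 3148 protein-coding genes whose body, or the 2 kb on either side, holds a reproducible NK7.1 summit, which is 22.6% of the 13945 annotated protein-coding genes. Their strongest peaks hold ranks 1 to 6, 9, 10, 12 and 14 of the 2475 reproducible peaks. The weakest of these peaks, at CG32772, had a signal of 898. The peaks on either side of it belong to none of the 10 genes and had signals of 909, in lncRNA:Vinr with a TSS of lncRNA:CR44619 nearest, and 896, in lncRNA:CR31840. Ranks 7, 8 and 11 were held by peaks beside ph-p, mRpL41 and Chro, with signals of 1122, 1106 and 1007. These genes are not among the 10, so signal alone does not define the selection.

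Binding was measured by ChIP-seq, in which DNA crosslinked to a protein is recovered with an antibody and sequenced. All 3 biological replicates were whole embryos aged 0 to 24 h with the sexes pooled, from 1 transgenic line that stably carries NK7.1 with green fluorescent protein at its C-terminus, and the precipitation used an anti-GFP antibody according to the sample descriptions. A separate antibody label names NK7.1, and which of these is meant, the tag or the protein itself, cannot be settled from the labels. The labels name no promoter for the transgene and describe no second genotype or treatment, so there is 1 group and the only spread is that between replicates. Whole embryos mix all cell types, and a site bound strongly in few cells cannot be told apart from one bound weakly in many. Per replicate the deposited dm6 lists held 25801, 30000 and 30000 peaks, a list from the pooled libraries held 26951, and the authors' optimal list, called the reproducible set here, held 2475. Read counts are not part of these lists, so depth is unknown. The signal is the authors' score on a peak caller's own scale, and the scale of the pooled libraries differs from that of single replicates.

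Homeodomain proteins read short DNA words, many of them built on a TAAT core, while several NK-type homeodomains of flies and vertebrates are known to bind AAGTG. A ChIP-seq peak marks where DNA was recovered, either by direct contact or through a partner protein, and its summit is the position of highest recovery. The 10 genes do varied work. The gene cbt (cabut) encodes a KLF-like zinc-finger transcription factor, and px (plexus) encodes a nuclear protein that limits the formation of wing veins. Ugalt carries UDP-galactose into the Golgi, PNPase degrades and processes RNA in mitochondria, Lk6 is a kinase that phosphorylates the cap-binding protein eIF4E, and Art3 is a protein arginine methyltransferase. RefSeq gives CG14100, CG11050, CG1888 and CG32772 as uncharacterized proteins, and no role is given to them here.

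The sequence under the summits is shown first because the peaks share features of sequence that the selection did not use. The stretches come from the Release 6 (dm6) assembly of RefSeq, forward strand, within 100 bp of the summit and cut short where annotated UTR bases begin. Capitals in the first pair mark GGGCGTA or its reverse complement TACGCCC, a 7-base word that was noticed in these sequences after they were seen. The Ugalt stretch holds 1 copy 82 bp to the right of the summit. The CG14100 stretch holds 2 copies, 75 bp to the left and 72 bp to the right, each reading towards the summit between them.
Ugalt chrX:2703853-2703985: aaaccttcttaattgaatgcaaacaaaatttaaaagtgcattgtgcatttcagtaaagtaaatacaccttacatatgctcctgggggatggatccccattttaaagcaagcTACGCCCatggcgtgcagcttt
CG14100 chr3L:19590525-19590712: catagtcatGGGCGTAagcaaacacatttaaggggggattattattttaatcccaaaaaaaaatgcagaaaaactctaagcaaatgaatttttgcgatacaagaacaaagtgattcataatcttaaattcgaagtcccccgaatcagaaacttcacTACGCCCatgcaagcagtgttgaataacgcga

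The next 4 stretches show the AT-rich core of the strongest peaks. Capitals mark any of 9 short words searched on both strands within 50 bp of the summit. These were the promoter element DRE (TATCGATA) and its part CGATA, the core promoter word GGTCACACT, the GAGA factor word GAGAG, the homeodomain words TAATTG and, differing in its last base, TAATTA, the NK-type word AAGTG, the E-box CACGTG and the Zelda core CAGGTA. Copies farther than 50 bp from the summit, which the printed stretches can also hold, are left in lower case. Within 50 bp of the summits of cbt and CG11050, at ranks 1 and 5, there were none of these words. Art3 had AAGTG there, and PNPase had TAATTA.
cbt chr2L:480982-481182: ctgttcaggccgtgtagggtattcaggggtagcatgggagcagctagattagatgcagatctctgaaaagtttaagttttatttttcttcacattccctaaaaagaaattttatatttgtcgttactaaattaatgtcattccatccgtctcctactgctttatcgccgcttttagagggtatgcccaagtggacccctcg
CG11050 chr2L:6612622-6612822: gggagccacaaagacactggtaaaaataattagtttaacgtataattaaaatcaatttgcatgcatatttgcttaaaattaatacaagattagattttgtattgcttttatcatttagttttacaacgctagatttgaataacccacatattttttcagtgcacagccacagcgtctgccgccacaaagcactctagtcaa
Art3 chr3R:15229421-15229621: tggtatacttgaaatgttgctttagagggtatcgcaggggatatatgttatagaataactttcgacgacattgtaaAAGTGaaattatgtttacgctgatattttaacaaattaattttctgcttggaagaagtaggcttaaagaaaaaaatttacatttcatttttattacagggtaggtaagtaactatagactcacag
PNPase chr3R:31404605-31404652: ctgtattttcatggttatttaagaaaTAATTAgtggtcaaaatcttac

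At the transcription factor gene cbt (FBgn0043364, 2L 476446 to 479688, minus strand) the strongest peak of the whole set covered 480870 to 481298 with its summit at 481082. It lay upstream of cbt, 1394 bp from its transcription start site (TSS), and within intronic sequence of ush, the fly Friend-of-GATA gene, which starts 4862 bp away on the plus strand. Its signal was 572 in replicate 1, 586 in replicate 2 and 668 in replicate 3, a mean of 609 ± 52.2 (SD, n = 3). It was the highest peak of every replicate list. A second reproducible peak, at 479955 to 480183, lay closer to cbt, 361 bp upstream of the TSS. That peak had signals of 140, 125 and 161 in the 3 replicates and ranked 139, 122 and 95 there. Its pooled signal was 418, against 1837 for the peak farther upstream, so the weaker of the cbt peaks is the one nearest the promoter.

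The wing vein gene px (FBgn0003175, 2R 22494297 to 22562065, minus strand) is 67769 bp long and held 7 reproducible peaks, the most of the 10 genes. The lead peak, meaning the strongest reproducible peak of a gene, covered 22514092 to 22514490 in an intron and had its summit 207 bp upstream of an internal TSS. Its signals of 489, 465 and 525 gave a mean of 493 ± 30.1 (SD, n = 3), with ranks of 3, 4 and 3. The 6 others, all intronic, had pooled signals of 94.6 to 154 and ranks of 990 to 2381. The strongest of them, 23944 bp from the lead summit, had signals of 59.6, 35.8 and 64.8, and the 3 replicates each placed it among their own 2475 strongest peaks. Of the 6, this one and the peak with a signal of 139 were supported by all 3 replicates, 3 by 2 replicates and 1 by 1 replicate. The px gene thus combines 1 peak at the top of every list with several near the lower end of the reproducible set.

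Ugalt (FBgn0024994, X 2701124 to 2703852, minus strand) had a single reproducible peak at its promoter. It covered 2703687 to 2704081, with the summit 33 bp upstream of the TSS, the shortest such distance of the 10. Signals were 471 in replicate 1, 513 in replicate 2 and 608 in replicate 3, a mean of 531 ± 70.3 (SD, n = 3), and the ranks were 5, 2 and 2. On the other side of the summit, 686 bp away, starts eIF2Bbeta, which encodes a subunit of a translation initiation factor and is transcribed in the opposite direction. The peak therefore lies between divergent genes, and peak position alone does not assign it to one of them. The pooled list placed no other summit in the Ugalt window.

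The genes PNPase and Lk6 carried their lead peaks in introns. For PNPase (FBgn0039846, 3R 31401560 to 31405452, minus strand) the peak at 31404486 to 31404846 lay 79 bp upstream of an internal TSS, and the divergent kinase gene Gprk2 starts 598 bp away. Its signals were 385, 361 and 429, with a mean of 392 ± 34.8 (SD, n = 3) and ranks of 8, 7 and 7. PNPase had no second reproducible peak, and the next pooled summit had a signal of 47.2. For Lk6 (FBgn0017581, 3R 11750931 to 11764457, minus strand) the peak at 11760886 to 11761226 lay 962 bp upstream of an internal TSS. Signals there were 349 in replicate 1, 290 in replicate 2 and 443 in replicate 3, a mean of 361 ± 77.2 (SD, n = 3). Its rank was 12 in replicates 1 and 2 and 6 in replicate 3.

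Art3 (FBgn0038306, 3R 15227605 to 15229408, minus strand) had its peak at 15229358 to 15229707, between its own TSS at 113 bp and that of the mitochondrial ribosomal protein gene mRpS10 at 144 bp. The 2 genes are divergent and the summit is about as close to one as to the other. Signals of 389, 285 and 344 gave a mean of 339 ± 52.5 (SD, n = 3). Replicate 1 ranked the peak 7 and the other replicates ranked it 13. Caf1-55, which encodes a histone chaperone subunit, CG34316 and asRNA:CR43471 also lie within 2 kb of the summit. It was the only summit at Art3 in the pooled list and in each full replicate list.

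Among the uncharacterized genes, CG14100 (FBgn0036889, 3L 19589072 to 19590524, minus strand) had a promoter peak at 19590432 to 19590803, 88 bp upstream of its TSS and 161 bp from the 3′ end of ash1, which encodes a Trithorax-group histone methyltransferase. The signals were 483, 476 and 512, a mean of 490 ± 19.1 (SD, n = 3). The ranks were 4, 3 and 4. CG9330 ends 1501 bp from the same summit. No other pooled summit fell in the window of CG14100.

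The gene CG11050 (FBgn0031836, 2L 6611011 to 6617117, plus strand) had its lead peak in an intron at 6612505 to 6612907, 1035 bp downstream of an internal TSS. Signals were 497 in replicate 1, 388 in replicate 2 and 468 in replicate 3, a mean of 451 ± 56.4 (SD, n = 3). The peak was the second highest in replicate 1 and the fifth in the others. A second reproducible peak at 6610635 to 6611054 lay 166 bp upstream of the start of the gene. It had signals of 65.6, 52.9 and 79.8, was found among the 2475 strongest peaks of all 3 replicates, and ranked 575 in the reproducible set with a pooled signal of 201. As at cbt, the stronger of the CG11050 peaks was the one farther from the outermost TSS.

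The remaining pair, CG1888 and CG32772, had the weakest lead peaks of the 10. In CG1888 (FBgn0033421, 2R 9541947 to 9548135, minus strand) the peak at 9547021 to 9547346 had its summit in the annotated 5′ UTR, 233 bp upstream of an internal TSS. Signals of 309, 297 and 379 gave 329 ± 44.6 (SD, n = 3), and the ranks were 15, 10 and 9. In CG32772 (FBgn0052772, X 4909102 to 4915161, plus strand) the peak at 4910197 to 4910542 lay in an intron, 1265 bp downstream of the TSS, with CG6927 ending 1546 bp away. Signals of 350, 262 and 292 gave 301 ± 44.7 (SD, n = 3). CG32772 was ranked 11, 17 and 21, and rank 21 is the lowest that any of the 10 lead peaks reached in a replicate.

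**Figure D1:**
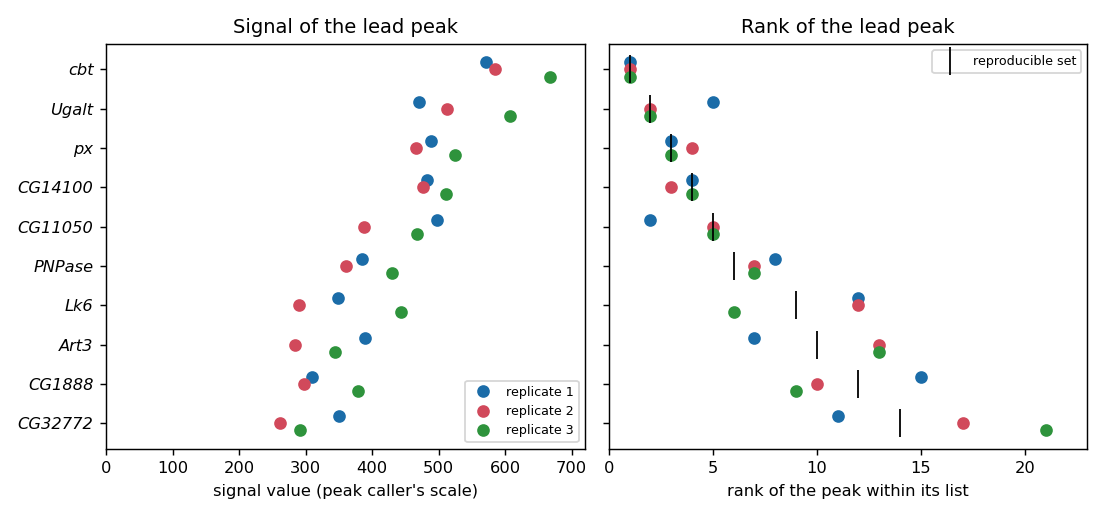
Signal (left, peak caller's scale, axis from 0) and rank (right) of the lead peak of each gene in the 3 replicates, one coloured point per replicate, with a black tick for the rank in the reproducible set. The cbt peak ranks 1 in each replicate, and the points of CG32772 spread from rank 11 to rank 21.

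The lead peaks of the 10 genes stood near the top of every replicate list. Their mean rank was 6.8, 7.4 and 7.1 in replicates 1, 2 and 3 (7.1 ± 0.3, SD, n = 3), and all 10 were among the first 25 peaks of every replicate. By mean signal the order ran from cbt through Ugalt, px, CG14100, CG11050, PNPase, Lk6, Art3 and CG1888 to CG32772. The ranges of every neighbouring pair in this order overlap in part. Within the replicates, 2 of the 9 neighbouring pairs kept their order in all 3, cbt above Ugalt and CG11050 above PNPase. The values of cbt, Ugalt, px and CG14100 ran from 465 to 668 and did not overlap those of Lk6, Art3, CG1888 and CG32772, which ran from 262 to 443. For scale, the median signal of the 2475 strongest peaks was 50.5, 41.0 and 49.6 in the 3 replicates. All 10 lead peaks were supported by the 2475 strongest peaks of all 3 replicates, which holds for 57.7% of the reproducible set. The reproducible set was made from the same libraries and the genes were selected on it, so this is a description and not an independent check. All 10 held the highest −log10 q-value in the lists, 3.41, which therefore does not separate them.

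Each replicate placed its lead summits close to the reproducible summits, which were made from the same libraries. Distances from one replicate to another were not measured. Over the 10 genes and 3 replicates, all 30 summits lay within 50 bp of the reproducible summit, and the median shift was 7 bp, with a range of 0 to 33 bp. The medians of replicates 1, 2 and 3 were 5, 7 and 8 bp. Over all reproducible peaks the median shift was 19 bp and the middle of the distribution, from the first to the third quartile, ran from 5 to 44 bp. Shifts were smallest at px, with 6, 2 and 0 bp, and at CG14100, with 1, 1 and 7 bp. They were largest at PNPase in replicate 2 with 33 bp, at Lk6 in replicate 2 with 31 bp and at Art3 in replicate 3 with 29 bp. Other peaks of ranks 1 to 100 had a median shift of 11 bp, those after rank 100 and up to rank 500 had 13 bp and those after rank 500 had 21 bp, so the shift also moves with rank. Lead peaks were 326 to 429 bp wide with a median of 366.5 bp, against 420 bp over the whole set. Among other peaks the median width was 283 bp for ranks 1 to 100, 248 bp after rank 100 and up to rank 500, and 420 bp after rank 500.

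The lead peaks lay near gene starts about as often as other reproducible peaks. Of the 10 summits, 7 fell within 1 kb of a TSS, against 66.4% of all reproducible summits. The median distance to the nearest TSS was 220 bp, with a range of 33 to 1394 bp, and over the whole set it was 373 bp. In all 10 cases the nearest TSS was one of the gene's own. The genes were picked for lying at these peaks, so this does not show which gene a peak belongs to. Summits of 8 genes lay upstream of that TSS and 2 lay downstream, at CG11050 and CG32772, while 61% of all reproducible summits were upstream. Of the 8, 4 were upstream of the outermost start of the gene (cbt, Ugalt, CG14100 and Art3) and 4 were inside the gene, upstream of an internal start (px, PNPase, Lk6 and CG1888). The 2 downstream summits are also the lead peaks of the only plus-strand genes among the 10.

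Most of the genes had no reproducible peak besides the lead. Together the windows of the 10 genes held 18 reproducible peaks, of which 8 were secondary, and these fell at px (6), cbt (1) and CG11050 (1). Having 2 or more reproducible peaks was thus seen at 3 of 10 genes, against 22.7% of the 3148 genes with at least 1. Of the 8 secondary peaks, 4 were supported by all 3 replicates. The replicates' own 2475 strongest peaks gave 20, 20 and 18 summits in the same windows (19.3 ± 1.15, SD, n = 3). In the pooled list, which reaches into background, there were 70 summits, and 52 of them lay outside the reproducible set. The gene px alone held 35 of the 70, Lk6 11 and CG1888 8. Ugalt, CG14100, Art3 and CG32772 had no pooled summit besides the lead. The next pooled signals at genes without a second reproducible peak were 82.7 at CG1888, 66.7 at Lk6 and 47.2 at PNPase. At CG1888 replicates 2 and 3 each placed 3 summits among their 2475 strongest peaks and replicate 1 placed 1.

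**Figure D2:**
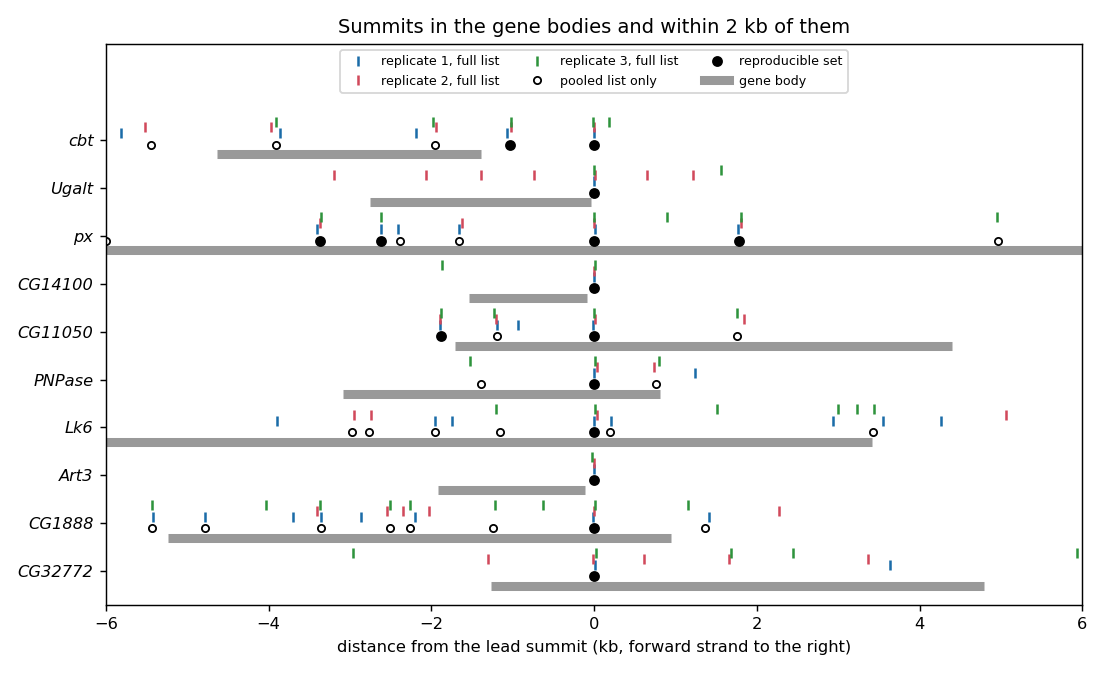
Summits at each gene by distance from its lead summit (kb, forward strand to the right, cut at 6 kb on either side), with ticks for the full lists of the 3 replicates, open circles for the pooled list alone, filled circles for the reproducible set and grey bars for gene bodies. Ticks of the 3 replicates stack at position 0 for every gene, and further filled circles appear within the plotted range at cbt, px and CG11050.

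The DNA under the lead summits was poor in G and C. Within 50 bp of the summit the G and C content was 24.8% at CG11050, 26.7% at CG14100 and Art3, 27.7% at cbt and px, 30.7% at CG32772, 31.7% at Lk6, 32.7% at PNPase, 34.7% at Ugalt and 37.6% at CG1888. The median was 29.2%, against 35.6% over all reproducible summits, and 9 of the 10 values lay below that overall median. Measured at each replicate's own summits the median over the 10 genes was 29.2, 28.7 and 30.2% (29.4 ± 0.756%, SD, n = 3). In windows of the same width 500 bp away the median was 43.1% over the single left and right flanks of the 10 genes. For the whole set the flanks of each peak were averaged first, and the median was also 43.1%. Of the 10 lead summits, 8 were below both of their flanks. Other peaks of ranks 1 to 100 had a median of 31.7%, those after rank 100 and up to rank 500 had 33.7% and those after rank 500 had 35.6%, so low G and C content goes with high rank beyond the 10 genes.

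The AT-rich core was narrow and had G- and C-richer DNA next to it. In a band from 60 to 120 bp on both sides of the summit the content was 55% at cbt and CG32772, 56.7% at Ugalt, 52.5% at CG11050, 48.3% at px and CG1888 and 43.3% at CG14100. It was 38.3% at PNPase and Lk6 and 36.7% at Art3. The band exceeded the core at all 10 genes, by a median of 18.6 percentage points and by 5.66 points at PNPase, where the gap was smallest. The corresponding median over the other reproducible peaks was 3.47 points, and this comparison was not split by rank. The band of those other peaks had a median of 39.2%, above the values of PNPase, Lk6 and Art3. In the cbt and CG11050 stretches printed above, the summit lies in runs of A and T, with G and C more frequent towards the ends.

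**Figure D3:**
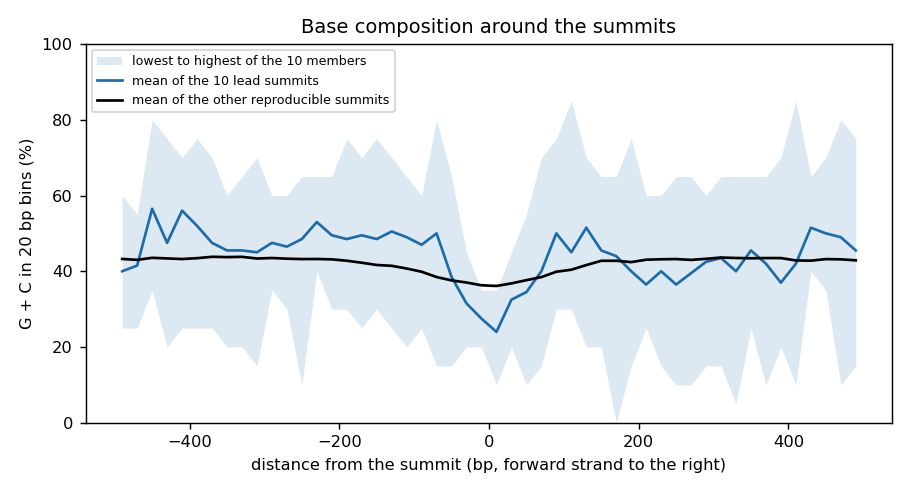
Mean G and C content (%) in 20 bp bins by distance from the summit (bp) for the 10 lead summits (blue, with the lowest and highest gene as a shaded band) and for the other reproducible summits (black). Both lines dip at the summit, and the dip of the 10 genes is the deeper one.

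The 9 searched words occurred 7 times in sum at the lead summits, and each is given beside its share of the whole set. The homeodomain word TAATTG was within 50 bp of the summit at 1 of 10 genes, Ugalt, and at 9.49% of all reproducible summits. Another such word, TAATTA, was found at 2, PNPase and CG1888, against 6.95%. These counts are small and changed when replicate 2 or replicate 3 was left out. Without replicate 2 TAATTG was at 2 genes and TAATTA at 1, and without replicate 3 TAATTA was at 1. The NK-type word AAGTG was found at 3, Ugalt, CG14100 and Art3, against 23.6%. CGATA was found at CG14100 alone, against 15.6%. No lead summit held the full DRE word TATCGATA, which is present at 1.78% of the set. The same was true of GGTCACACT (0.606% of the set), GAGAG (11.8%), CACGTG (1.05%) and CAGGTA (2.18%). At cbt, px, CG11050, Lk6 and CG32772 none of the 9 words was present. No difference from the shares of the whole set was tested, and a missing word says only that those letters are not in the window. The shares were not adjusted for the lower G and C content of the lead windows.

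The word GGGCGTA, shown in capitals in the Ugalt and CG14100 stretches, lay within 120 bp of the lead summit at 4 of 10 genes, against 2.06% of all reproducible summits. The other copies were at px, 93 bp to the right, and at CG1888, 66 bp to the left. Because the word was noticed in these very sequences, its count at the 10 genes is a description, and the peaks of other genes are the ones it was not drawn from. Among the other 90 peaks of ranks 1 to 100 it was present at 8 (8.89%), and windows of the same width 500 bp to the right and left of them held it in 1.11 and 2.22%. Its share was 2% after rank 100 and up to rank 500, and 1.57% after rank 500, where the flanks held it in 1.67 and 1.42%. Pooled peaks outside the reproducible set held it in 1.60%. At the 10 genes themselves the right flank held it in 0 cases and the left flank in 20%.

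At the stronger peaks most copies of this word read towards the summit, which was not tested. All 5 copies at the 4 genes lay more than 50 bp from the summit and read 5′ to 3′ towards it. At the other 90 peaks of ranks 1 to 100, 7 of 8 copies read towards the summit, and after rank 100 and up to rank 500 it was 8 of 9. After rank 500 it was 22 of 32, and in pooled peaks outside the reproducible set 196 of 387 (50.6%). An inward copy on each side of the summit, as at CG14100, was found at 1 other reproducible peak. No factor is assigned to the word here.

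**Figure D4:**
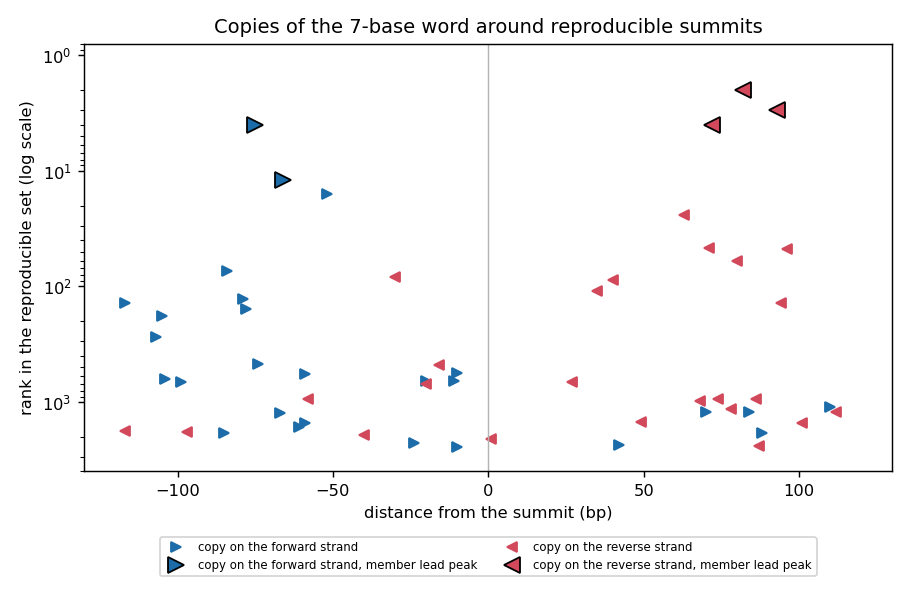
Position of each copy of GGGCGTA within 120 bp of a reproducible summit (horizontal axis, bp) against the rank of the peak (log scale, rank 1 at the top), with triangles pointing in the reading direction and black outlines for lead peaks of the 10 genes. Outlined triangles on either side point towards the summit.

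Relatives of the 6 genes with a known role carried reproducible peaks at a share of 28.8%. Of 73 other genes on 6 family lists, 21 had a reproducible summit in this same window, against 22.6% of all protein-coding genes, and 14 had one within 1 kb of a start of their own. Their strongest signals ran from 95.0 to 516, below those of all 10 lead peaks. Because the 10 genes were selected on signal, that gap follows from the selection and is not a finding. The lists were written with earlier results of these data known. For the KLF and Sp zinc-finger factors related to cbt, 1 of 8 genes had a peak, luna, with 3 peaks and a highest signal of 149. For wing vein patterning 6 of 16 had one. They were the EGF receptor antagonist aos (337), the BMP ligand dpp (207), shn, a cofactor in BMP signalling (205, with 8 peaks), the SRF homologue bs (179), the HLH protein gene emc (106) and the BMP receptor gene sax (95.0). At luna and bs the TSS nearest to the strongest peak was another gene's.

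Nucleotide sugar transporters, the relatives of Ugalt, had peaks at 4 of 8 genes. These were frc (439), senju (218), CG14971 (121) and meigo (119), and the frc peak ranked 104, 83 and 135 in the replicates. Genes of mitochondrial RNA metabolism had peaks at 3 of 12, namely the mitochondrial transcription termination factors mTerf5 (274) and mTerf3 (106) and the mitochondrial RNA polymerase PolrMT (102). Around Lk6, genes of MAP kinase signalling and eIF4E control had peaks at 4 of 19. Raf, the kinase that starts the MAP kinase cascade, had 10 peaks with a highest signal of 516 and ranks of 88, 65 and 68. The highest signal was 174 at eIF4EHP and 95.8 at the eIF4E-binding protein gene Thor. On the list for arginine methyltransferases 3 of 10 genes had a peak, Art1 (117), Art7 (112) and Art2 (99.8). That list also holds FBXO11 and vls, neither with a peak, and not every gene on it need be such an enzyme. The peak of Art1 lay 110 bp upstream of its TSS, close to the 113 bp of Art3, and ranked 1632. Another gene's TSS was nearest to the strongest peak at frc, senju, CG14971, mTerf5, mTerf3, eIF4EHP, Art2 and Art7. At frc and senju an own TSS also lay within 1 kb of that peak. The Art7 peak lay 25 bp from the other gene's TSS and 4240 bp from its own. For mTerf5 these distances were 114 and 3270 bp.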

How the data were processed

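The authors deposited narrowPeak lists on dm6 and dm3 for each of the 3 replicates, for the pooled libraries and after thresholding by the irreproducible discovery rate (the optimal list), per the listings that accompany each library. Peaks were called against a control, per the same source, after sonication to a size range given as 200 to 800, per the labels. Aligner, peak caller and any scaling for depth: not given in the sources used here. In the deposited lists the signal of each peak is a score. The −log10 q-value, also deposited, is capped. Both are the authors' values, used only to describe and rank peaks within a list. Without read counts no depth enters any error.

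Only dm6 lists were used. Gene models came from Ensembl 115, restricted to 6 chromosome arms, and sequence from the Release 6 assembly. Coordinates are 1-based. A summit belonged to a gene when it lay in the gene body or within 2 kb. A replicate supported a lead peak when one of its 2475 strongest peaks overlapped it by 1 bp or more. Mean ± SD is over replicates. No test was run, since the genes were selected on signal. The genes and the family lists were chosen with earlier results of these data known. All 10 genes are named, with genes whose body or 2 kb window holds a lead summit, family genes with a peak (1 of them is not reported here) and the peaks next in rank to the weakest lead. Genes beside ranks 7, 8 and 11 were named after their values were seen. Of 82 listed family genes 80 were matched by name, to 79 distinct genes, and Dl and LRPPRC2 were not. Code was tested on simulated data. Tools were Python 3.11.15, NumPy 2.4.6, pandas 2.3.3 and Matplotlib 3.10.9. Alternatives covered windows, overlap, list depth and leaving out replicates.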

Additional observations from a re-analysis of the deposited data

How the results depend on the processing

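The median G and C content of 29.2% became 27.5% within 25 bp of the summit and 37.3% within 100 bp. The 7 occurrences of a searched word at a gene became 16 within 100 bp. The mean of 19.3 summits per replicate became 68.3 with the full lists and 12.7 with the 1000 strongest peaks. The 21 family genes with a peak became 11 in the stronger part of the reproducible set and 14 within 1 kb of an own TSS. The 18 peaks at the genes were counted without asking for replicate support. Those supported by both remaining replicates numbered 14, 15 and 16 without replicates 1, 2 and 3. All 3 replicates together supported 10 lead and 4 secondary peaks. Leaving out a replicate gave a mean rank of 6.95 to 7.25 and a median shift of 6 to 7.5 bp. It gave 6 to 7 word occurrences in sum and 19 to 20 summits. Peaks at the genes numbered 12 in gene bodies alone and 21 within 5 kb, and 6 lead summits lay within 500 bp of a TSS and 10 within 2 kb. For single words, TAATTA was at 1 gene within 25 bp, without replicate 2 and without replicate 3, against 2, and TAATTG was at 2 without replicate 2, against 1. Support of all 10 lead peaks was kept with the 100 strongest peaks of each replicate. GGGCGTA, chosen after seeing the data, was at 0 of the 10 genes within 50 bp and at 4 within 100 or 150 bp. No paired analysis was possible because the series holds 1 group. Read depth, an untagged line and other factors were not analysed here, and neighbouring genes can share a peak.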
